A study of Rattus norvegicus with 8 samples.

Results

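The normal urinary bladder methylome was described from the 3 control rats alone, out of 8 samples in the series. The members were the 200-bp tiles of chromosomes 1 to 20 in which every one of the 3 controls had at least 3 covered CpGs. These were 285629 of the 1048307 tiles with any covered CpG, or 27.2%, and they spanned 57.1 Mb of the rn6 rat genome. The controls were male F344/DuCrj rats that were 10 weeks old at the start and drank water with 0 ppm of dimethylarsinic acid (DMAV) for 104 weeks. The labels call the tissue bladder urothelium, whereas the study's methods speak of bladder tissue, so other cells of the bladder wall may have contributed DNA. The remaining samples are tumors of treated rats and were not used. DNA methylation was read by reduced representation bisulfite sequencing (RRBS), in which restriction enzymes that cut at CpG-containing sites enrich CpG-rich DNA and bisulfite turns unmethylated cytosines into bases read as T.

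In mammals, methyl groups are placed on the cytosine of CpG dinucleotides and are copied to the new strand when cells divide. Most of the genome is methylated and has lost many of its CpGs over evolution, whereas CpG islands, the dense clusters found at many gene starts, usually stay free of methylation. Imprinted genes carry methylation on the copy from a single parent at their control regions, and many germ line genes are kept methylated in body cells. A level is the share of DNA copies that were methylated in all cells of a sample together, so a middle level does not tell a mixture of cells from a mixture of parental copies.

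The promoters of 4 genes are printed to show what the levels refer to. They were chosen to span the range from no methylation to nearly full methylation. Each runs from 250 bases before to 50 bases after the gene's start, was taken from RefSeq (GRCr8), and was placed on rn6 by the spacing of its CpGs. Capitals mark the CpGs covered in all 3 controls.
Tbp: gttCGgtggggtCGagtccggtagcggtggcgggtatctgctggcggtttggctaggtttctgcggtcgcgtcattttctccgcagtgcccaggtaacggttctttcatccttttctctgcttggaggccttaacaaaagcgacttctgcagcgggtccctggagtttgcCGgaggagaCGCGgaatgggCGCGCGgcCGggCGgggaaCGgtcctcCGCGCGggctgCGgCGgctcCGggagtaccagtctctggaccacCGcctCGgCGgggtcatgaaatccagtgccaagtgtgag
Mest: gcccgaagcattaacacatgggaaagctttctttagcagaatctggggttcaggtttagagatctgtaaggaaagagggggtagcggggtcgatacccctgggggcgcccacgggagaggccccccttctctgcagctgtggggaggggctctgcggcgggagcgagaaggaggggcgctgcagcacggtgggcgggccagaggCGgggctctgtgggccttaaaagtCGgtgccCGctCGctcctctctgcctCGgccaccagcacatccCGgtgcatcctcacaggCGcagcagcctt
Peg10: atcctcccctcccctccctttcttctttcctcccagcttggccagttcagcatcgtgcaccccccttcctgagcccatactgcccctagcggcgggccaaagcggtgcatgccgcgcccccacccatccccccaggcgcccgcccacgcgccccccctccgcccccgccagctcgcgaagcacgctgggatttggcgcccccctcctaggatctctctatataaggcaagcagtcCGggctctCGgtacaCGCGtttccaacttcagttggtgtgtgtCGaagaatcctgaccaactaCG
Ddx4: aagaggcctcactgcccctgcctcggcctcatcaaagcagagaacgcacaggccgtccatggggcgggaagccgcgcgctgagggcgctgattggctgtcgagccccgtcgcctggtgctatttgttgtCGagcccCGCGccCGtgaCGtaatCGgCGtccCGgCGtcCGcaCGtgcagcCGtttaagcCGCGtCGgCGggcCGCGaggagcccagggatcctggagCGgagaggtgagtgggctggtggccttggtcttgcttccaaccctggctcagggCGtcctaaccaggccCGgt

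Tbp, the TATA-binding protein that every cell needs for transcription, was placed at chr1:57491393-57491692 on the plus strand. All 20 of its covered CpGs were unmethylated, with means over the controls from 0% to 4.34%. Mest, an imprinted gene expressed from the paternal copy, was placed at chr4:58052536-58052835 on the plus strand. Its 7 covered CpGs were all partly methylated, from 29.6% to 47.9%. At the Mest CpG 22 bases before the start, the levels were 55.6%, 11.1% and 33.3% in controls 1, 2 and 3, each from 9 reads, and the neighboring CpGs share those reads. At the CpG 38 bases after the start, which had 48, 30 and 66 reads, the levels were 50%, 46.7% and 47.0%. The controls thus lay far apart where the reads were few and close together where they were many. Peg10, another paternally expressed imprinted gene, was placed at chr4:29795259-29795558 on the plus strand and had 6 covered CpGs from 40.1% to 48.3%, all partly methylated. Ddx4, a germ cell RNA helicase, was placed at chr2:44504104-44504403 on the minus strand. Of its 21 covered CpGs, 18 were fully methylated, 3 were partly methylated and none was unmethylated, with a range from 74.3% to 100%.

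**Figure D1:**
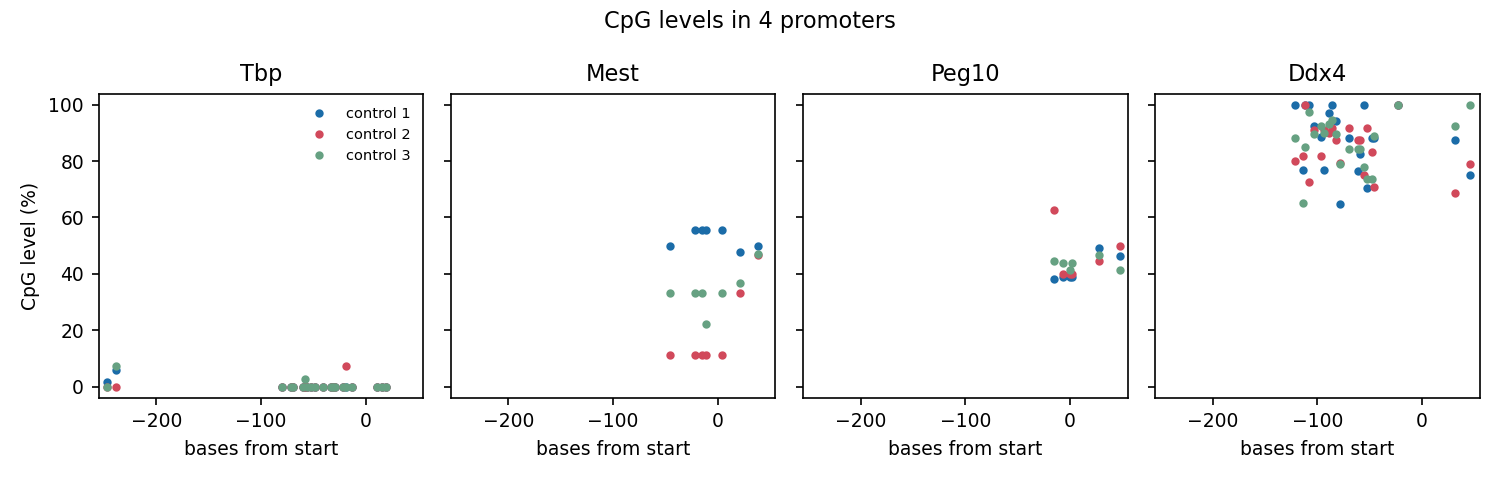
Methylation level (%) of each CpG covered in all 3 controls, by its distance in bases from the gene's start, in the 4 printed promoters. Each point is 1 CpG in 1 control. Tbp lies near 0%, with no CpG mean above 4.34%, Mest and Peg10 lie in the middle and Ddx4 lies high, with CpG means from 74.3%.

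The 3 libraries were of similar size. They held 2769379, 2799376 and 2526077 CpGs and 60446203, 54890782 and 66770163 calls in controls 1, 2 and 3, with a median of 15, 14 and 17 reads per CpG. The tiles held 1741403 of the 2994131 CpGs covered on these chromosomes in any control (58.2%) and 78.1% to 82.3% of the calls. The median tile had 4 CpGs, the densest had 42, and the median number of calls per tile was 95, 83 and 99. No base-resolved rn6 genome was used here, so what the annotation places at a tile is given only where a promoter could be placed.

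Tile levels had a narrow peak near 0% and a broad peak near 90%. The mean tile level was 58.1% ± 0.204 (SD, n = 3), and the median was 74.1%, 74.4% and 73.9% in controls 1, 2 and 3. Levels of 0% to 5% were found in 20.6% ± 0.307 of the tiles. The share fell to its lowest, 1.18% ± 0.00679, between 15% and 20%, then climbed to 14.1% ± 0.0740 between 90% and 95%. No methylated call at all was found in 6.06%, 6.45% and 6.72% of the tiles. Every call was methylated in only 1.60%, 1.73% and 2.08%, so the low end reached its limit more often than the high end did.

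With limits of 20% and 80%, unmethylated tiles made up 25.1% ± 0.184, partly methylated tiles 32.6% ± 0.227 and fully methylated tiles 42.2% ± 0.232 (SD, n = 3). By the mean of the 3 controls these were 71404, 92011 and 122214 tiles. The median level within the classes was 0.637% ± 0.0939, 63.6% ± 0.472 and 90.1% ± 0.104. Unmethylated tiles were therefore close to 0%, while partly methylated tiles leaned toward the upper limit. The class with the most calls per tile was the unmethylated one, with a median of 227, 222 and 265. The median was 80, 70 and 80 for partly methylated and 80, 67 and 82 for fully methylated tiles. Unmethylated tiles also held more CpGs, with a mean of 11.1 against 4.41 in partly and 4.46 in fully methylated tiles. Calls per tile thus do not measure reads per CpG. Weighted by calls, only 36.4%, 35.1% and 33.1% of the calls in the tiles were methylated, well under the mean tile level. The shares depended on which tiles were counted: 46.8% were unmethylated among tiles with 5 or more CpGs in every control and 12.8% among 1-kb tiles, and with limits of 10% and 90% the partly methylated share was 55.8% and the fully methylated share 21.6%.

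**Figure D2:**
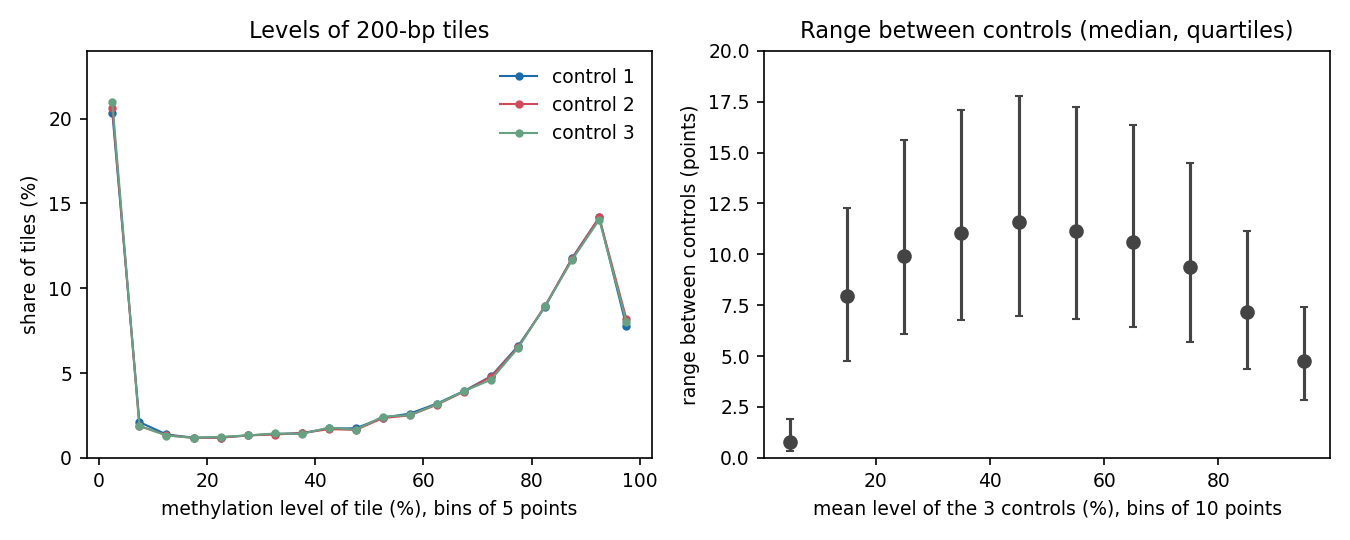
Left: share of tiles (%) in bins of 5 points of methylation level, with 1 line for each control. Right: range between the 3 controls (points) by their mean level, with dots for the median and bars for the quartiles. The 3 lines lie on each other with peaks at 0% to 5% and 90% to 95%, and the median range is highest, at 11.6 points, for levels of 40% to 50%.

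CpG density separated the classes. Tiles with 3 to 4 covered CpGs had a mean level of 70.3% ± 0.252, and 9.05% ± 0.214 of them were unmethylated (n = 152752 tiles). The mean level was 62.1% ± 0.199 with 5 to 7 CpGs, 36.6% ± 0.198 with 8 to 11 and 10.1% ± 0.155 with 12 to 15. It was 2.16% ± 0.116 in the 18000 tiles with 16 or more. The unmethylated share went from 20.1% ± 0.192 through 54.0% ± 0.177 and 87.8% ± 0.0832 to 97.7% ± 0.0147 over the same classes. Each step was far larger than the spread between controls. Most of this change took place between 6 CpGs, where 21.5% of tiles were unmethylated, and 13 CpGs, where 87.9% were. At 9 CpGs the unmethylated share was 52.6% ± 0.166 and the fully methylated share was 29.1% ± 0.256. The dense minus sparse difference in the unmethylated share was 88.6 points. Because CpGs were counted only where reads covered them, a sparse tile may hold uncovered CpGs as well.

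**Figure D3:**
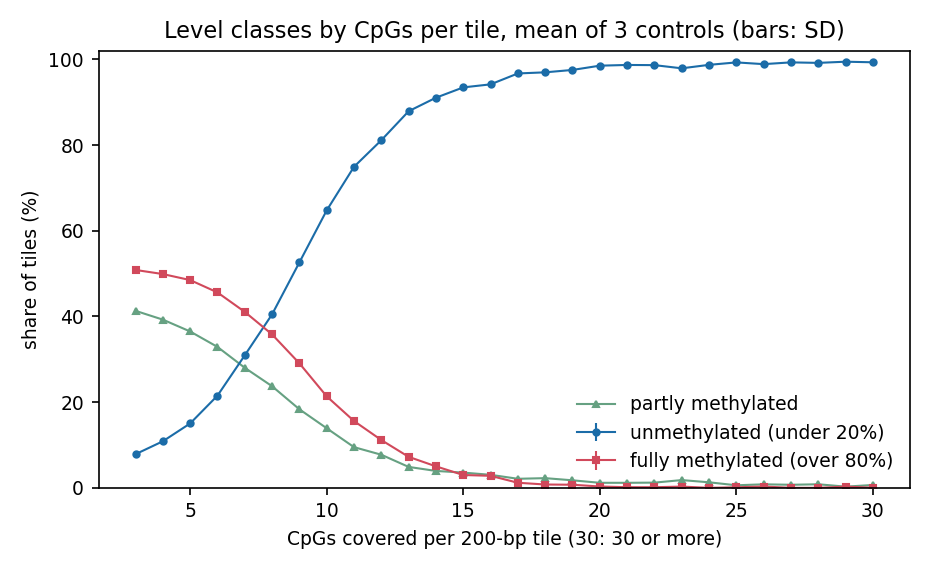
Share of tiles (%) that were unmethylated, partly methylated or fully methylated, by the number of covered CpGs in the tile, as the mean of 3 controls with SD bars that are mostly smaller than the symbols. The unmethylated share climbs from 7.85% at 3 CpGs to 93.4% at 15 and passes the fully methylated share at 8.

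Exceptions to this pattern existed in both directions. Among the 18000 tiles with 16 or more CpGs, 287 were partly methylated and 133 were fully methylated by the mean of the controls. The densest fully methylated tile, chr1:148444601-148444800 with 29 CpGs, was at 95.7%, 95.2% and 95.2% in controls 1, 2 and 3. The next, chr1:101002201-101002400 with 26 CpGs, was at 93.1%, 91.4% and 92.5%. Both were over 90% in every control. The densest partly methylated tiles were chr1:78810601-78810800, with 40 CpGs at 36.4%, 26.7% and 27.0%, and chr4:122224801-122225000, with 34 CpGs at 33.3%, 26.6% and 28.0%. In both of these control 1 was the highest and lay apart from the other controls. The 2 densest unmethylated tiles each had 42 CpGs. They were chr10:95242801-95243000, at 0.307% ± 0.150, and chr14:79445801-79446000, at 0.202% ± 0.126. At the sparse end, 13558 tiles with 3 to 4 CpGs were unmethylated by the mean of the controls.

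Partly methylated tiles were mostly made of partly methylated CpGs. Over the tiles in which at least 3 CpGs had 10 or more reads in every control, 74.7% of the CpGs of partly methylated tiles were themselves partly methylated, 19.1% were fully methylated and 6.23% were unmethylated. In 41.4% of these tiles every CpG was partly methylated, and 5.44% held both an unmethylated and a fully methylated CpG. In unmethylated tiles, 99.0% of the CpGs were unmethylated.

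Neighboring tiles had like levels. The Pearson correlation across tiles between the mean levels of a tile and the next one was 0.958 (n = 81111 pairs, which share reads and CpG density). It was 0.726 at a distance of 1000 bases, 0.421 at 2000 and 0.0534 at 100000. The next tile was of the same class in 86.1% of pairs. For unmethylated tiles this share was 96.8%, against 66.3% for partly methylated and 79.2% for fully methylated ones. Unmethylated tiles lay in 28971 runs of adjacent tiles, with single tiles counted as runs, and 82.4% of the tiles were in runs of 2 or more. A run also ends where the next tile was not among those used, so run lengths depend on coverage. The longest run had 21 tiles, or 4200 bases, at chr14:82602401-82606600.

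Chromosomes differed by a few points. Chromosome 10 had the lowest mean tile level, at 53.3%, 53.4% and 53.0% in controls 1, 2 and 3, followed by chromosome 1 at 55.1% ± 0.242. Chromosomes 16 and 2 stood in the middle of the order, both at 59.5%. Chromosome 13 had the highest level, at 62.1%, 62.2% and 61.8%, and chromosome 15 was next at 61.3% ± 0.221. The highest and lowest chromosomes did not overlap in any control and differed by 8.82 points ± 0.0249. Among the 19 pairs of neighbors in this order, 11 had overlapping ranges over the controls. Compared within each control, 15 of the 19 pairs, 7 of these 11 included, stood in the same order in all 3 controls, and 4 pairs did not. Control 2 was the highest and control 3 the lowest on 20 of 20 chromosomes, so the order of the controls was common to all chromosomes. The size of the differences was not. Controls 2 and 1 were at 56.97% and 56.96% on chromosome 7, but at 59.73% and 59.42% on chromosome 16. The order also changed with CpG density. In tiles with 16 or more CpGs control 1 was the highest, at 2.29%, 2.14% and 2.06% in controls 1, 2 and 3.

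Part of the chromosome order moved with CpG density. Over the 20 chromosomes, the mean number of CpGs per tile and the mean level had a Pearson r of -0.917 and a Spearman rho of -0.851. Chromosome 10 had 6.41 CpGs per tile and chromosome 13 had 5.65. When each chromosome was given the CpG makeup of all tiles, the difference between the highest and the lowest came down to 5.40 points, with chromosome 10 at 54.8% ± 0.180 and chromosome 13 at 60.2% ± 0.195. In tiles with 3 to 4 CpGs alone it was 5.29 points, from 67.0% ± 0.252 on chromosome 10 to 72.2% ± 0.247 on chromosome 11.

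**Figure D4:**
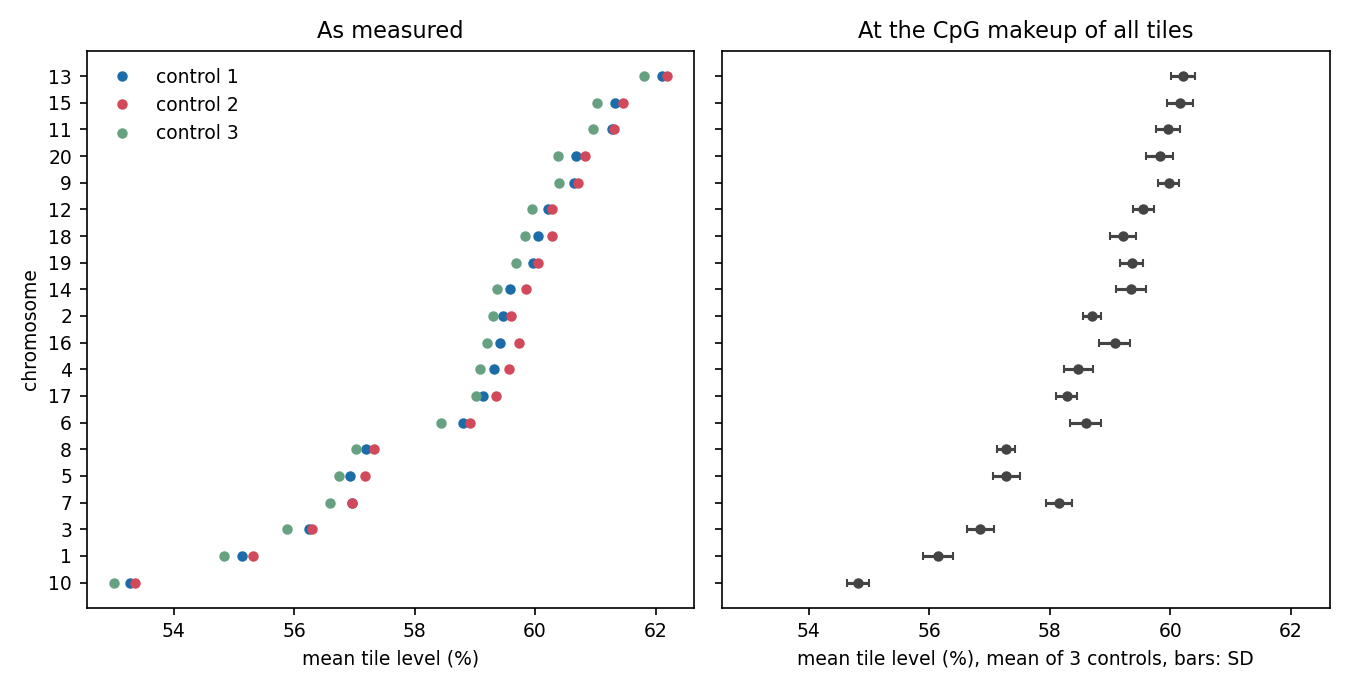
Mean tile level (%) of each chromosome, ordered by level. Left: 1 dot per control. Right: the same after each chromosome was given the CpG makeup of all tiles, as the mean of 3 controls with SD bars. Chromosome 10 is lowest and chromosome 13 highest in both, 8.82 points apart on the left and 5.40 on the right.

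The controls agreed closely. The same class was found in all 3 controls in 234746 tiles, or 82.2%. Another 15.1% moved between partly and fully methylated and 2.68% between unmethylated and partly methylated. In 28 tiles, 0.00980%, 1 control was unmethylated and another fully methylated. Of the tiles unmethylated in any control, 89.9% were so in all 3, against 57.3% for partly and 69.5% for fully methylated tiles. The Pearson correlation across tiles was 0.977, 0.977 and 0.976 for the pairs 1 and 2, 1 and 3, and 2 and 3 (n = 285629 tiles, which share CpG density and are not independent replicates). The root mean square (RMS) difference was 7.73, 7.84 and 7.90 points, and 85.1%, 85.5% and 84.8% of tiles were within 10 points. The RMS difference was 3.43 ± 0.0517 points in unmethylated, 11.2 ± 0.162 in partly methylated and 6.52 ± 0.0398 in fully methylated tiles (SD over 3 pairs).

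At single CpGs, the difference between controls was little larger than counting error gives. At the 1409597 CpGs with 10 or more reads in every control, the RMS difference was 8.95, 8.66 and 8.86 points for the 3 pairs, and binomial counting at these depths gives 8.78, 8.50 and 8.77. What remained beyond counting was 1.76, 1.70 and 1.26 points. At partly methylated CpGs it was 2.96, 2.79 and 2.38 points. In the 93179 tiles with 100 or more calls in every control, the median range between the controls was 2.12 points, against 5.72 over all tiles. In these deep tiles it was 0.664 points for unmethylated, 7.14 for partly methylated and 3.75 for fully methylated tiles. Of the deep tiles, 48050 were unmethylated, against 71404 of all 285629 tiles. The medians of 2.12 and 5.72 points thus differ in class makeup as well as in depth.

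Single tiles were compared between the control libraries. Fisher's exact test (two-sided) on the deepest CpG of each tile, with 10 or more reads in every control, called 34 of 230150 tiles at an adjusted p under 0.05 in any pair, which is 0.0148%. This compares libraries and covers counting error only. Control 1 was the farthest from the others in 27 of the 34, and 26 tiles were called between controls 1 and 2, 24 between 1 and 3 and 5 between 2 and 3. With control 1 left out, 3 were called. Without it the test had only the last of these pairs. The unadjusted p was under 0.05 in 2.37%, 2.47% and 2.33% of the tiles. The shallowest control had a median of 26 reads at the tested CpGs and 151 at the called ones, so the number called is no measure of how many tiles differ.

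Of the 34 called tiles, 23 lay in a pair of stretches and 11 lay elsewhere. The stretches were drawn from the calls themselves, as groups of 3 or more called tiles lying close together. That 23 lay inside them follows from how they were drawn, and the tested tiles inside them were not counted. Read depth was extreme in both stretches, and some of the tiles elsewhere had high depth too. There were 17 in chr1:11904964-11971829, where control 1 averaged 981 reads per CpG, against 234 and 348 in controls 2 and 3 and about 22.0, 19.8 and 26.7 over all chromosomes. The level over this stretch was 8.40%, 18.3% and 17.5% of calls. Another 6 lay in chr14:46565391-46678565, where the controls averaged 298, 143 and 125 reads per CpG and the levels were 23.2%, 33.2% and 30.3%. Control 1 was the deepest over both stretches and had the lowest level over both, though at single called tiles it was the lowest in 13 of the 17 and in 5 of the 6. The levels over the stretches include the called tiles, so they do not stand apart from the calls. The 11 tiles elsewhere were of unlike depth. The tested CpG chr6:31049835 had 1136, 1129 and 2171 reads in controls 1, 2 and 3, and chr12:43729566 had 31, 48 and 81. Without tiles whose tested CpG had over 300 reads in any control, an alternative chosen after seeing the data, 3 tiles were called. The adjustment was made anew over the 229931 tiles left, and some called tiles with no more than 300 reads in every control dropped out as well. At the depths of the chr1 and chr14 stretches, reads may come from several similar copies placed together. They may also come from a different number of copies in each rat, so the levels there may not be those of a single place. This was not tested.

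The largest ranges among tiles with 100 or more calls in every control were found in 5 tiles. At chr17:9519201-9519400, with 14 CpGs, the levels were 37.7%, 15.3% and 63.6% in controls 1, 2 and 3. At chr14:46591601-46591800 they were 64.0%, 32.7% and 22.8%. This tile and the next, chr14:46633401-46633600 at 8.54%, 46.0% and 36.2%, lie in the deep stretch of chromosome 14 named above, with control 1 highest in the former and lowest in the latter. The others were chr20:6875001-6875200, at 46.6%, 83.3% and 62.5%, and chr1:15677401-15677600, at 40.5%, 57.1% and 22.1%. No control was the odd one in all of these tiles.

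Gene starts were reached through the RefSeq promoters. Of 33469 promoter sequences, 15918 had at least 8 CpGs, and 8664 of these could be placed at a single place on rn6. The chromosome was the one RefSeq names in 8636, or 99.68%. Of 7663 genes placed on chromosomes 1 to 20, 7620 had a level from the tiles that overlap the promoter. The median promoter level was 0.376% ± 0.0274 (SD, n = 3). By the mean of the controls, 7369 promoters (96.7%) were unmethylated, 148 (1.94%) were partly methylated and 103 (1.35%) were fully methylated, and 99.4% had the same class in all 3 controls. Since only CpG-rich, covered promoters could be placed, these shares do not describe all rat promoters.

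Unmethylated promoters lay in a wide trough. Around them the mean CpG level was 0.566% ± 0.0628 in the 100 bases before the start and 0.683% ± 0.0702 in the 100 bases after it, where the class itself fixes a low level. Farther out it was 4.32% ± 0.0968 at 600 to 700 bases before the start and 14.3% ± 0.208 at 1000 to 1100. It was 41.0% ± 0.103 at 2900 to 3000 bases before and 55.9% ± 0.289 at the same distance after the start. Around partly methylated promoters, the level was 53.1% ± 0.668 at 200 to 300 bases before the start and 23.6% ± 0.570 at 700 to 800 bases after it. Around fully methylated promoters it was 89.2% ± 0.200 at 100 to 200 bases before the start. For these classes too, the places given before the start lie at least partly in the promoter that set the class. Farther than 300 bases from the start, each bin around fully methylated promoters held under 100 CpGs, so no level is given there.

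**Figure D5:**
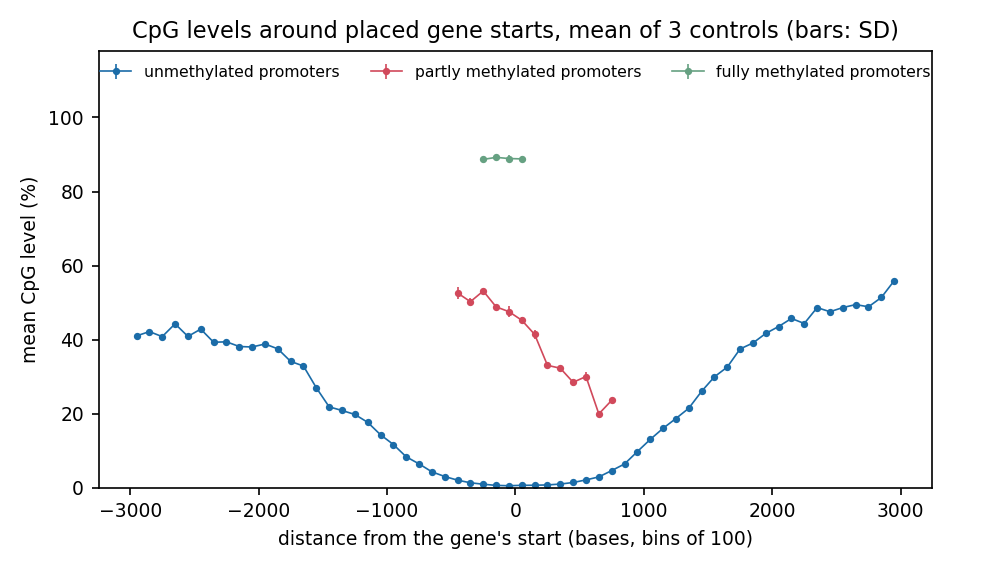
Mean CpG level (%) by distance from the gene's start (bases, in bins of 100) around placed promoters of each class, as the mean of 3 controls with SD bars. Bins with under 100 CpGs are not drawn. The unmethylated promoters form a trough from 41.0% at the far left through 0.566% at the start to 55.9% at the far right.

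Gene lists were read beside this background of 96.7% unmethylated promoters, and 46 of their 137 genes had a placed promoter with a level. Of these, 36 were unmethylated, 7 partly methylated and 3 fully methylated. The levels are those of the whole tiles that overlap a promoter. From the CpGs of the promoter alone, an alternative chosen after seeing the data, 42 of 42 had the same class, but 10 levels differed by over 1.5 times, 4 of them above 1% (Grhl3, Igf2, Hoxd10 and Lhx2). In Klf5, Sdha, Dazl and Slc25a31, at least 1 control had under 3 covered CpGs inside the promoter, so no such value was given. In such a control their levels rest at least in part on CpGs outside the promoter. All 8 housekeeping promoters were unmethylated. The highest were Eef1a1, a translation elongation factor, at 0.963% ± 0.977, Polr2a, the largest subunit of RNA polymerase II, at 0.384% ± 0.103, and Tbp at 0.218% ± 0.0531. From the CpGs of the promoter alone, however, Eef1a1 was at 0%. The lowest were Eef2, another elongation factor, at 0.0627% ± 0.109, the chaperone Hsp90ab1 at 0.0833% ± 0.144 and Sdha, of the mitochondrial respiratory chain, at 0.0896% ± 0.155. The mean level of each was under 1%.

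All 10 developmental transcription factors were unmethylated too. Hoxd10, a homeobox gene of limb and trunk patterning, was the highest at 14.7%, 12.4% and 9.35% in controls 1, 2 and 3, a mean of 12.2%, against 7.98% from the CpGs of the promoter alone. Pax3, at 3.48% ± 1.77, and Neurog1, a neural factor, at 2.59% ± 1.44, came next and overlapped each other. The lowest were Nkx6-1 at 0.730% ± 0.709, Foxc1 at 0.109% ± 0.0323 and Nkx2-1, with no methylated call among 193, 150 and 127 calls, which allows up to 1.55%, 2% and 2.36%. Hoxd10 alone in this list was above 5% in every control.

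The 3 placed promoters of tumor suppressor and repair genes were unmethylated. They were Brca1, of homologous recombination, at 0.251% ± 0.281, Gstp1, a detoxifying glutathione transferase, at 0.324% ± 0.152, and Dapk1, a death-associated kinase, at 0.404% ± 0.273. The DNA methylation machinery was likewise unmethylated in 4 of 4. Uhrf1, which brings the maintenance methyltransferase to newly copied DNA, was at 0.551% ± 0.154, and at 0% from the CpGs of the promoter alone. Tet3 was at 0.296% ± 0.399, while Tet1 and Tet2 had no methylated call, which allows up to 2.97% and 4.92% in their shallowest controls. The Tet enzymes oxidize methylated cytosine and so start its removal.

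Among 6 placed promoters of the urothelial and epithelial list, 5 were unmethylated. Klf5, Grhl3 and Pparg, transcription factors of epithelial differentiation, were at 0.355% ± 0.384, 1.81% ± 0.879 and 3.50% ± 1.13. From the promoter alone Grhl3 was at 2.77%. Krt18, a keratin of simple epithelia, was at 3.43% ± 1.03. Upk3a, a uroplakin of the apical plaque of umbrella cells, was at 18.1%, 12.7% and 14.2% in controls 1, 2 and 3, just under the limit for partly methylated. Krt8, the partner of Krt18, was at 54.0%, 61.7% and 57.8%. Its promoter was thus partly methylated in every control and did not overlap any other promoter of this list. The stromal genes Vim and Synm, for intermediate filaments, were at 0.852% ± 1.08 and 0.461% ± 0.0904, and no promoter of the immune and endothelial list was placed. Expression was not analysed here, so the labelled tissue was not checked by it.

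Imprinted genes were divided. Of 7 placed promoters, 4 were unmethylated and 3 partly methylated. Igf2r, the receptor that clears insulin-like growth factor II, was at 28.0%, 26.0% and 33.4% in controls 1, 2 and 3. Mest was at 43.7%, 31.2% and 40.6%, and Peg10 was at 45.4%, 51.1% and 45.2%. All 3 were between 26.0% and 51.1% in every control. Igf2, the growth factor itself, was at 7.65% ± 1.25 (11.6% from the promoter alone), above Inpp5f at 0.579% ± 0.529, Dlk1 at 0.479% ± 0.415 and Gnas at 0.151% ± 0.0843. Gnas, which encodes a G protein subunit, has several starts. The start given here, at chr3:172420094-172420393, was unmethylated, whereas another, at chr3:172374707-172375006, was at 35%, 36.3% and 46.4%. The levels at these Gnas starts did not overlap.

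Germ line genes were the list with no unmethylated promoter, 0 of 6. Ddx4 was at 87.8%, 85.0% and 86.8% in controls 1, 2 and 3. Tex101, a surface protein of germ cells, was at 85.7%, 86.3% and 85.0%, and Slc25a31, an ADP/ATP carrier of the testis, was at 83.4%, 86.9% and 81.8%. These 3 were fully methylated and overlapped one another. Mael, of the piRNA pathway that silences transposons, was at 68.1% ± 1.84, Dazl, an RNA-binding protein of germ cells, at 62.0% ± 3.25 and Piwil1, a piRNA-binding protein, at 61.0%, 55.0% and 50.5%. These lower 3 were partly methylated and lay below the fully methylated ones in every control. Slc25a31 and Dazl had no level from the CpGs of the promoter alone.

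Beyond the lists, the methylated promoters with the most CpGs were looked up, and these were named after their values were seen. Fully methylated ones included Spaca1, of the sperm acrosome, with 34 CpGs at 80.6%, 82.5% and 84.5%. The tubulin genes Tuba3a and Tuba3b were at 94.5% ± 0.812 and 94.4% ± 0.875. They are close relatives, so reads may have been exchanged between them or lost. Partly methylated ones included Sox30, a transcription factor of sperm formation, with 49 CpGs at 26.4% ± 3.69, and Adad1, of the testis, with 35 CpGs at 65.7%, 67.5% and 65.6%. Tbx1, a developmental transcription factor, was at 37.6% ± 3.05 and Alpk3, a kinase-like protein of muscle, was at 51.0% ± 1.57. Hnrnpa3, an RNA-binding protein, was at 29.8%, 29.3% and 49.3%, with control 3 well above the others.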

How the data were processed

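RRBS of the 3 control bladders was done for the authors by a company, ACTIVE MOTIF. The DNA was cut with TaqaI and MspI, and the libraries were sequenced as single reads. Before deposit, the company mapped trimmed reads to rn6 by RRBSMAP, discarding reads that mapped to several places and, by a random barcode, PCR copies. The submitters' processing notes also name HOMER. Every CpG in the deposited files has at least 3 reads over its strands, with 1 count for methylated (C) calls and 1 count for all calls. They also hold effective counts, which are estimated counts that the authors' caller corrected for base variants (an alternative here), and the level as a deposited fraction, which was not used further. A tile is 200 bp, and its level is the percent of C among all calls of its CpGs (pandas, numpy and scipy in Python).

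Tiles with 3 or more CpGs in each control were kept. CpGs per tile were counted over the 3 controls together. Shares and levels are the mean ± SD over the 3 controls, which measures the spread between these samples. Libraries were compared by Fisher's exact test on 1 CpG per tile, since CpGs of the same read are not independent, with Benjamini-Hochberg adjustment over all tiles and the 3 pairs. It was tested on simulated data. Intervals, limits and tests cover counting error only.

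RefSeq promoters (GRCr8) with 8 or more CpGs were placed where at least 8 CpG positions and 90% of the covered positions in the window matched on spacing, with a lead of 3 over the next place. No coordinate was converted between builds. As a check, 140 of 141 placed genes in the study's region list lay within 1000 bases of the listed rn6 region. Named genes are all placed members of the urothelial and imprinted lists and the highest and lowest 3 of the others. Named tiles are the 2 with the most CpGs in each class and the 5 with the largest range among those with 100 or more calls in each control. The members and lists were chosen with earlier results of these data known. Alternatives changed the read minimum, tile size and position, averaging, class limits, CpG minimum, base variants and the controls used.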

Additional observations from a re-analysis of the deposited data

Results flagged for a closer look

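Methylated calls on mitochondrial CpGs, which lie outside the chromosomes described, were above the limit that a count of 0 allows (3 calls of the total). Any incomplete conversion would pass this limit, so the values are given as a description. They were 0.223% of 218209 calls in control 1, with a 95% exact binomial interval of 0.203% to 0.243% and a limit of 0.00137%. In control 2 they were 0.340% of 98591 calls, with an interval of 0.304% to 0.378% and a limit of 0.00304%. In control 3 they were 0.249% of 102991 calls, with an interval of 0.219% to 0.281% and a limit of 0.00291%. These calls include any cytosine that bisulfite left unconverted, whose share was not tested. The median levels of unmethylated tiles were higher, at 0.726%, 0.647% and 0.539% in controls 1, 2 and 3. Control 1 had the lowest share of methylated mitochondrial calls and the highest of these medians. Groups of 3 are too small for a test of outlying samples.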

How the results depend on the processing

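The shares of the classes depended on which tiles were counted and on the class limits. With only CpGs of 10 or more reads, 33.7% of tiles were unmethylated, 28.6% partly methylated and 37.7% fully methylated, 87.6% had the same class in all 3 controls, the RMS difference was 5.58 points and the dense minus sparse difference was 86.2 points. With 1-kb tiles these values were 12.8%, 40.3%, 46.9%, 78.9%, 7.97 points and 66.7 points, and the chromosomes spanned 6.98 points. With 5 or more CpGs in every control they were 46.8%, 22.2%, 31.1%, 90.1% and 5.21 points, with a chromosome span of 11.9 points and no sparse class left to compare. Class limits of 10% and 90% gave 22.6%, 55.8%, 21.6% and 78.2% of the same class. The mean of the CpG levels gave 80.9% of the same class and an RMS difference of 8.30 points. The chromosome span was 8.88 points with tiles shifted by 100 bp and 8.86 points with the effective counts. Without CpGs that showed a base variant, 32.2% of tiles were partly and 42.6% fully methylated.

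Leaving out a control gave unmethylated shares of 24.1% to 24.8%, partly methylated shares of 32.7% to 33.2% and fully methylated shares of 42.3% to 42.7%. The same class was found in 87.2% to 88%, with fewer controls to agree. The RMS difference was 8.05 to 8.39 points and the chromosome span 8.6 to 8.76 points. Called tiles between libraries were 3 to 26. Those called without control 1 were 3, as they also were without tiles over 300 reads. Of the list promoters, 76.7% were unmethylated with 10 or more reads per CpG (43 promoters) and 81.0% from the CpGs of the promoter alone (42 promoters, an alternative chosen after seeing the data). The median of the imprinted list was then 18.3% and 11.6%, and that of the germ line list from the promoter alone 81.0%. Fewer promoters had a level under both. Without a control, 78.3% to 78.7% of list promoters were unmethylated. Of 94 alternative values, 41 moved by no more than the spread between the controls, or 1.5 times for counts, while most of the values are shares or spans that have no sign to reverse. The order of the classes did change: fully methylated tiles were the largest class as reported, unmethylated tiles with 5 or more CpGs and partly methylated tiles with limits of 10% and 90%. No paired analysis was possible because only the control group was used. The median tile had under 100 calls in every control. The median range between controls was 5.72 points over all tiles against 2.12 in those with 100 or more calls, of which a larger share was unmethylated.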

Other observations

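Chromosome X, which was not among the chromosomes described, had 4530 tiles that met the same rule. Their mean level was 54.4% ± 0.147 (SD, n = 3), and 34.2% were unmethylated and 45.8% fully methylated. Tiles of 3 to 4 CpGs on it had a mean level of 71.9%. Position along the chromosome went with small differences only: tiles of 3 to 4 CpGs were at 69.8% ± 0.191 within 5 Mb of a chromosome's first or last covered CpG, at 71.1% ± 0.282 between 5 and 20 Mb and at 70.0% ± 0.244 farther in.

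On the opposite strand, under 90% of the G and A calls were G at 5359, 5739 and 5104 CpGs of controls 1, 2 and 3. These were 0.230%, 0.244% and 0.238% of the CpGs with enough such reads.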
